A study of Mus musculus with 47 samples.

Results

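The effect of the Q140 allele on striatal gene expression was measured in mice that carried the genotype Ccdc82+/-, with 1 of the 2 Ccdc82 copies targeted. The 8 Q140 Ccdc82+/- mice were compared with 8 Ccdc82+/- mice without a Q140 allele, 4 females and 4 males in each group. The comparison used 16 of the 47 libraries of the series and all genes. Both groups had the strain label C57BL, were 6 months old and carried Ccdc82+/-; they differed in the Q140 allele, for which the Q140 Ccdc82+/- mice were labelled heterozygous knock-in. The other libraries came from 8 wild type, 8 Q140, 8 Ccdc82-/- and 7 Q140 Ccdc82-/- mice of the same age and strain label. RNA was extracted from corpus striatum with a Qiagen RNeasy kit and made into Illumina TruSeq stranded libraries. Each library has its own title, sex and well address in the labels, which do not state littermates or extraction days, and p-values measure the spread between these libraries.

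Q140 mice carry an expanded CAG repeat in the mouse Htt gene and model Huntington's disease, which such an expansion causes in people and which damages the striatum. Most striatal neurons are medium spiny neurons (MSN), inhibitory projection cells that receive glutamate and dopamine input. Those of the direct pathway carry the dopamine receptor Drd1, and those of the indirect pathway carry Drd2 and make enkephalin from the precursor Penk. In mice with long Htt repeats, transcripts that define these neurons are known to decline. Ccdc82 encodes a coiled-coil domain protein. The comparison asks what the Q140 allele changes when 1 copy of Ccdc82 is targeted; the labels do not state what was predicted.

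The repeat that the Q140 allele expands lies at the start of the Htt coding sequence. The first 120 coding bases of the reference gene are shown because the groups differ here by design. The longest uninterrupted in-frame CAG run, 4 codons from codon 21, is in capitals. The bases were read from GRCm38 at chr5:34761907-34762026, plus strand, in exon 1 of Htt-201. Repeat lengths of the mice were not analysed here.
Htt coding start: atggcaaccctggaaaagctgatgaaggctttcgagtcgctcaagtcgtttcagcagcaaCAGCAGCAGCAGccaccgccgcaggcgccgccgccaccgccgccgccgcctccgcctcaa

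Promoters are shown for 4 MSN genes that fell with Q140 and differ in CpG content. Each runs from 250 bases before to 50 bases after the RefSeq start on GRCm38.p6, and each CpG dinucleotide is in capitals.
Ddit4l, chr3:137623422-137623721, plus strand, 14 CpG: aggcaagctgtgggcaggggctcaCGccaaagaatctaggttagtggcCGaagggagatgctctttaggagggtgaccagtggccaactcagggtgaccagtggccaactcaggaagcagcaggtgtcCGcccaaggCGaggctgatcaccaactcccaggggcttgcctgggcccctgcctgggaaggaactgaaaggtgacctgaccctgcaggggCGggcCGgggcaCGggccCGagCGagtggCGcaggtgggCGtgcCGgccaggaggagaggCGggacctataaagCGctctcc
Ryr1, chr7:29125102-29125401, minus strand, 9 CpG: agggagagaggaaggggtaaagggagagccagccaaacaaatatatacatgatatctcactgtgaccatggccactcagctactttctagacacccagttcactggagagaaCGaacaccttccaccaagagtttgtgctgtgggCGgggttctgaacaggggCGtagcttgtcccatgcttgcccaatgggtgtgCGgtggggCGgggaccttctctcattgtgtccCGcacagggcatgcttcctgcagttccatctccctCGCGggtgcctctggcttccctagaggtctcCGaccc
Scn4b, chr9:45138374-45138673, plus strand, 26 CpG: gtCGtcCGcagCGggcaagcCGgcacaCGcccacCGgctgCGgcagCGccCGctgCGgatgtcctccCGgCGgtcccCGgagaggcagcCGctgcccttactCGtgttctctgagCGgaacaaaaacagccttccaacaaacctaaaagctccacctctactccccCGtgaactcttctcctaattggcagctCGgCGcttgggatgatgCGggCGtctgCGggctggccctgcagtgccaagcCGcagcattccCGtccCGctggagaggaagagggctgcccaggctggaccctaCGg
Adcy5, chr16:35154614-35154913, plus strand, 44 CpG: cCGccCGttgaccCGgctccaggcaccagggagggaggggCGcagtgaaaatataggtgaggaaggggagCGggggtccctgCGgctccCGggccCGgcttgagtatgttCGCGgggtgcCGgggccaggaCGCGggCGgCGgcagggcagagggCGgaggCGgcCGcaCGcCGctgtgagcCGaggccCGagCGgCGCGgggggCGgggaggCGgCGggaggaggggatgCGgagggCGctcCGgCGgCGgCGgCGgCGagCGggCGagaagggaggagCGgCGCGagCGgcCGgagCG
Among the printed promoters the CpG number went from 9 in Ryr1 to 44 in Adcy5. With the promoters of each gene averaged, the median was 15.25 over the 24 of 28 MSN identity genes found in the RefSeq table. It was 19 over the 12659 tested genes with an entry. Over all 32851 promoters of the table, taken singly, the median was 7.

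Total counts ran from 44622548 to 58649242 in the Ccdc82+/- libraries and from 42787305 to 58755248 in the Q140 Ccdc82+/- libraries. Levels are given as CPM, the count of a gene per 1e+06 counts of its library, with library totals adjusted by TMM scaling (trimmed mean of M values). The TMM factors did not overlap between the groups, at 0.961 to 0.991 in Ccdc82+/- and 1.009 to 1.042 in Q140 Ccdc82+/-. Small changes therefore depend on the scaling, and counts from the deposited FPKM, which were scaled by total counts, are given beside each gene list whose count of rises or of falls moved by 2 genes or more. The median log2 change of all genes with Q140 was 0.011 with TMM scaling and 0.076 with FPKM, and list medians are to be read beside these. Mitochondrially encoded transcripts took 5.61% to 6.05% of counts in Ccdc82+/- and 5.78% to 6.18% in Q140 Ccdc82+/-. In each of the 16 libraries the Xist level fitted the labelled sex. The tissue label fitted its markers: the 28 shared MSN identity genes summed to 25836 to 29404 CPM in Ccdc82+/- and 16902 to 18837 in Q140 Ccdc82+/-. The cortical genes Slc17a7 and Neurod6 lay at 1.91 to 3.69 and 0.1205 to 0.301 CPM in the Ccdc82+/- libraries. Ccdc82+/- female 4 and Q140 Ccdc82+/- female 4 stood apart in several measures. Without both, an alternative chosen after seeing the data, 3381 genes were higher and 3047 lower with Q140. Where a gene below is given with its range in both groups, the ranges did not overlap unless the text says so.

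Ccdc82 (ENSMUSG00000079084, chromosome 9, 13246955 to 13292520 in GRCm38), the targeted gene, was measured at 7.697 to 9.19 CPM (median 8.49) in Ccdc82+/- and 7.27 to 9.99 (median 8.56) in Q140 Ccdc82+/-. The groups overlapped over most of their ranges. The means were 8.42 ± 0.519 and 8.61 ± 0.927 CPM (SD, n = 8 each; exact two-sided permutation p = 0.623), or 70.1% and 71.7% of the wild type mean of 12.01 CPM. A difference in Ccdc82 mRNA between the groups was not detectable, and both means lay below that of wild type. The annotation of the deleted part was not used here, so these counts include reads from any part of the gene.

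Htt (ENSMUSG00000029104, chromosome 5, 34761740 to 34912534) lay at 204 to 223 CPM (median 218) in Ccdc82+/- and 196 to 214 (median 206) in Q140 Ccdc82+/-. Most Q140 Ccdc82+/- values were lower, and the groups overlapped. The means were 216 ± 6.66 and 206 ± 5.74 CPM (SD, n = 8 each; exact two-sided permutation p = 0.00591), and edgeR fitted -0.073 ± 0.029 on the log2 scale (SE, adjusted p = 0.0436). The Htt level difference rested on the scaling: without TMM factors it was -0.299 CPM with an exact permutation p of 0.925. The edgeR call of Htt was lost on leaving out any 1 of 11 libraries (adjusted p up to 0.0924), with the plate column in the model and with FPKM. Counts per gene do not separate the expanded from the normal allele.

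The Q140 allele changed a large part of the striatal transcriptome mostly by small amounts. Genes of MSN identity and of indirect pathway neurons were lower, and clustered protocadherins of the beta group were higher. Microglia and vascular genes were slightly lower, with counts that depended on the fit. Of these 20 and 13 fell, but 12 and 7 with the plate column in the model and 6 and 4 with FPKM. Of 19193 genes tested, 6726 passed an adjusted p of 0.05, 3524 (18.4%) higher and 3202 (16.7%) lower in Q140 Ccdc82+/-. Of the genes that passed, 50.1% changed by less than 0.2 on the log2 scale. A change of at least 0.5 was found for 445 higher and 571 lower genes, and one of at least 1 for 75 and 123. The 2 groups of 8 did not overlap at all for 867 higher (4.52% of genes tested) and 1105 lower genes (5.76%). The counts of the gene lists below are to be read beside these shares of all genes. With the deposited FPKM the split was 6500 higher and 1913 lower. Females alone gave 1524 and 1800 genes.

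The naming rule took genes that passed and whose mean log2 CPM reached 1. The 12 with the largest rises changed by 1.07 to 1.94 log2 units. First was Sfmbt2 (ENSMUSG00000061186, chromosome 2, 10370510 to 10595253), which encodes a Polycomb-associated protein with MBT repeats. It lay at 2.13 to 3.12 CPM (median 2.23) in Ccdc82+/- and 5.55 to 10.97 (median 9.398) in Q140 Ccdc82+/-. The groups were far apart, and the lowest Q140 value, that of female 4, was itself above every Ccdc82+/- value. The log2 fold change was 1.94 ± 0.12 (SE, adjusted p = 3.04e-18). Pcdh20 (ENSMUSG00000050505, chromosome 14, 88464743 to 88471396), a protocadherin gene, lay at 6.399 to 8.86 CPM (median 7.94) in Ccdc82+/- and 17.2 to 22.4 (median 19.2) in Q140 Ccdc82+/-. The groups did not overlap, and the change was 1.31 ± 0.09 (SE, adjusted p = 5.37e-16). Genes of cell junctions were also in this set: the desmosomal cadherin genes Dsg2 and Dsg1c rose by 1.295 ± 0.22 and 1.1001 ± 0.19. Dsg1c was at 1.05 to 3.13 CPM (median 2.702) in Ccdc82+/- and 3.97 to 7.34 (median 5.38) in Q140 Ccdc82+/-, groups that lay close but did not overlap.

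Nts, which encodes the peptide neurotensin, lay at 1.44 to 3.38 CPM (median 2.06) in Ccdc82+/- and 3.704 to 6.21 (median 5.03) in Q140 Ccdc82+/-. The highest Ccdc82+/- value, that of female 2, lay below the lowest Q140 value, and the change was 1.19 ± 0.22 (SE, adjusted p = 3.26e-05). Rprm, a gene of cell cycle arrest, rose by 1.16 ± 0.11. Fam196b rose by 1.41 ± 0.13, the channel-like gene Tmc3 by 1.403 ± 0.11, Ipcef1 by 1.11 ± 0.11, Vill, a villin-like gene, by 1.07 ± 0.07 and Greb1l by 1.09 ± 0.13. Of the 12, 11 had groups that did not overlap, the exception being Greb1l. All 12 also passed in the same direction with Q140 on the wild type and on the Ccdc82-/- background, where they changed by 0.63 to 1.88 and by 0.82 to 1.85.

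The 12 largest falls were of -2.39 to -1.52 log2 units. Gpx6 (ENSMUSG00000004341, chromosome 13, 21312125 to 21319624), a glutathione peroxidase gene, lay at 9.01 to 15.6 CPM (median 12.2) in Ccdc82+/- and 1.504 to 4.52 (median 2.07) in Q140 Ccdc82+/-. Every Q140 value was below every Ccdc82+/- value, and the highest Q140 value was that of female 4. Its change was -2.39 ± 0.17 (SE, adjusted p = 3.12e-15). Ddit4l (ENSMUSG00000046818, chromosome 3, 137621612 to 137628333), a regulator of mTOR signalling whose promoter is printed above, lay at 35.6 to 42.4 CPM (median 38.7) in Ccdc82+/- and 8.76 to 13.5 (median 9.97) in Q140 Ccdc82+/-. The groups were separated by a wide gap, and the change was -1.902 ± 0.09 (SE, adjusted p = 1.09e-21). Cpne9, a gene of the calcium-dependent copines, was at 10.2 to 22.5 CPM (median 19.6) in Ccdc82+/- and 3.29 to 4.83 (median 4.12) in Q140 Ccdc82+/-, again without overlap, and fell by 2.14. Plk5, a polo-like kinase gene expressed in brain, had an adjusted p of 2.58e-22 and changed by -1.59 ± 0.07.

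Mas1, a receptor of angiotensin fragments, was at 6.58 to 9.05 CPM (median 7.68) in Ccdc82+/- and 1.79 to 2.998 (median 2.37) in Q140 Ccdc82+/- and changed by -1.698 ± 0.14. Sec14l3, a lipid-binding protein gene, changed by -1.98 ± 0.13 and the transporter gene Slc4a11 by -1.81 ± 0.13. The others were Gm9754 (-1.77), Vwa7 (-1.75), Abhd11os (-1.67), Odf4 (-1.605) and Ankrd35 (-1.52). Abhd11os is antisense to Abhd11, and reads of such partners cannot be told apart because the counting settings are not stated. All 12 had groups that did not overlap. All passed in the same direction on both other backgrounds, at -2.47 to -1.22 on wild type and -2.55 to -1.42 on Ccdc82-/-. Only column 2 of the plate held 2 libraries of each group, and within it Sfmbt2 differed by 1.94, Pcdh20 by 1.32 and Gpx6 by -2.33 log2 units.

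**Figure D1:**
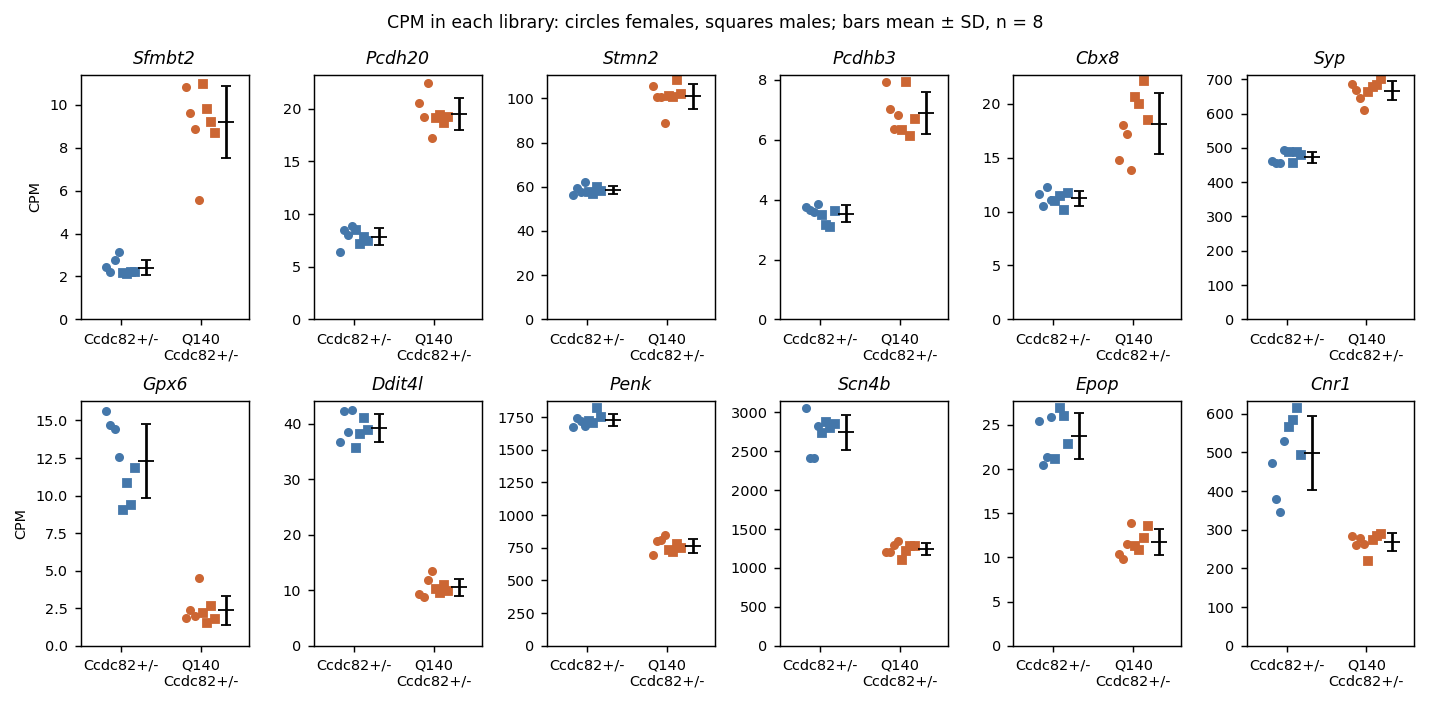
Levels in CPM (y axes, linear) of 12 genes, 6 higher and 6 lower with Q140, in the 8 Ccdc82+/- and 8 Q140 Ccdc82+/- libraries; circles are females, squares are males, and bars give the mean ± SD (n = 8). The 2 groups do not overlap in any panel, and Gpx6 runs from 9.01 to 15.6 CPM without and 1.504 to 4.52 with Q140.

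The 6 genes with the smallest p were Penk, Arpp19, Stmn2, Chn1, Pde1b and Zbtb18. Their adjusted p ran from 1.6e-27 to 8.12e-23. The changes were -1.18 ± 0.04, -0.72 ± 0.03, 0.79 ± 0.03, -0.50 ± 0.02, -0.65 ± 0.03 and -0.66 ± 0.03 in that order. Arpp19, which encodes a phosphatase inhibitor related to DARPP-32 signalling, lay at 695 to 809.7 CPM (median 751) in Ccdc82+/- and 417 to 499 (median 446) in Q140 Ccdc82+/-. Stmn2, which encodes the microtubule regulator stathmin-2, was the single gene of these that rose, and lay at 56.3 to 61.99 CPM (median 57.8) in Ccdc82+/- and 88.9 to 108 (median 101) in Q140 Ccdc82+/-; its lowest Q140 value, that of female 4, stood apart from the other 7. Chn1 encodes chimaerin, which switches off the GTPase Rac, and lay at 851 to 931 CPM (median 889.9) in Ccdc82+/- and 597 to 659 (median 631) in Q140 Ccdc82+/-. Zbtb18, a transcriptional repressor gene, lay at 157 to 185 CPM (median 164) in Ccdc82+/- and 95.8 to 117 (median 105) in Q140 Ccdc82+/-. None of the 6 had overlapping groups.

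Genes shared by all medium spiny neurons fell almost without exception. Of 28 tested, 26 fell, 1 rose and 1 did not pass; the median change was -0.56, beside 0.011 for all genes tested. In all 26 that fell, the groups did not overlap. The medians with Q140 on the other backgrounds were -0.53 on wild type and -0.55 on Ccdc82-/-. Bulk tissue cannot tell fewer cells of a type from less RNA per cell.

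The members cover several functions. Scn4b, the beta subunit that shapes sodium currents, was at 2407 to 3050.3 CPM (median 2813) in Ccdc82+/- and 1101 to 1347 (median 1252) in Q140 Ccdc82+/-. Its groups were far apart and the change was -1.14 ± 0.06 (SE, adjusted p = 5.27e-19). Cnr1, the cannabinoid receptor on MSN terminals, was at 345 to 614 CPM (median 512) in Ccdc82+/- and 218 to 290.1 (median 276) in Q140 Ccdc82+/-, also without overlap, and changed by -0.88 ± 0.10. Ryr1, a calcium release channel of the endoplasmic reticulum, ranged over 151 to 173 CPM in Ccdc82+/- and 48.4 to 79.6 in Q140 Ccdc82+/- and fell by 1.51. Adcy5, the main adenylyl cyclase of these neurons, lay at 1965 to 2232 CPM (median 2154) in Ccdc82+/- and 1238 to 1350.2 (median 1312) in Q140 Ccdc82+/- and changed by -0.70 ± 0.03 (SE, adjusted p = 3.62e-22). Ppp1r1b, which encodes the phosphatase inhibitor DARPP-32, lay at 2482 to 3006 CPM (median 2754) in Ccdc82+/- and 1589 to 1827 (median 1727) in Q140 Ccdc82+/-. The ranges of both genes were narrow and well separated, and Ppp1r1b changed by -0.67 ± 0.04. The phosphodiesterase genes Pde10a and Pde1b fell by 0.79 and 0.65, and Rgs9, which speeds the turn-off of G proteins, by 0.64.

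Transcription factors of MSN identity fell less: Rarb by 0.35, Foxp1 by 0.31, Meis2 by 0.29 and Bcl11b, also called Ctip2, by 0.28. Gnal, the G protein subunit that couples dopamine receptors to adenylyl cyclase, fell by 0.17. The rise was that of Strip2 (0.18 ± 0.04), and Slc24a3 stood at 0.048 ± 0.04 without passing. Fits that left out 1 library each counted 26 lower genes every time.

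Genes of indirect pathway neurons followed. Of 9 tested, 6 fell and 0 rose, with a median of -0.61. Penk (ENSMUSG00000045573, chromosome 4, 4133531 to 4138819) lay at 1675 to 1818 CPM (median 1721) in Ccdc82+/- and 694 to 848 (median 762) in Q140 Ccdc82+/-. No Q140 value came near the Ccdc82+/- range, and the change was -1.18 ± 0.04 (SE, adjusted p = 1.6e-27). Adora2a, the adenosine receptor that opposes Drd2, lay at 405 to 487 CPM (median 474) in Ccdc82+/- and 237 to 284 (median 255) in Q140 Ccdc82+/- and changed by -0.83 ± 0.05. Drd2 lay at 219 to 259 CPM (median 238) in Ccdc82+/- and 136 to 174 (median 159) in Q140 Ccdc82+/- and changed by -0.61 ± 0.04, and the orphan receptor gene Gpr6 changed by -0.66 ± 0.04. Upb1 fell by 0.93 and Oprd1 by 0.35, while Sp9 (-0.084), Ptprm (-0.067) and Grik3 (0.042) did not pass.

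Direct pathway genes moved both ways: 4 of 11 rose and 4 fell, with a median of 0.037. Drd1 lay at 375 to 428 CPM (median 392) in Ccdc82+/- and 248 to 269 (median 261) in Q140 Ccdc82+/- and the muscarinic receptor gene Chrm4 at 87.7 to 104 CPM (median 97.04) in Ccdc82+/- and 58.04 to 66.2 (median 63.2) in Q140 Ccdc82+/-. Neither gene's groups overlapped, and the changes were -0.61 ± 0.03 and -0.62 ± 0.05. The peptide genes of the pathway did not follow: Tac1, the substance P precursor gene, rose by 0.13 ± 0.04, and Pdyn, which encodes dynorphin, stood at -0.11 ± 0.08 and did not pass. Isl1, a transcription factor of direct pathway neurons, lay at 17.5 to 19.3 CPM (median 18.04) in Ccdc82+/- and 20.98 to 24.8 (median 22.3) in Q140 Ccdc82+/- and rose by 0.31 ± 0.04, and Eya1 rose by 0.37 ± 0.09. The changes of Sfxn1 and Slc35d3 were small (-0.16 and -0.12), and that of Sfxn1 lost its call without any 1 of 4 libraries; 2 of the list fell with the plate column in the model and 2 with FPKM, which gave 6 rises.

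The striatum is divided into striosomes and matrix. Of 11 striosome genes 2 rose and 3 fell, and of 9 matrix genes 3 rose and 4 fell. Of the striosome genes 8 had a change below 0, and on wild type 0 rose and 7 fell. Their rises numbered 1 with the plate column in the model, 0 with the first number of the library name and 2 with FPKM. Oprm1, the mu opioid receptor gene of striosomes, rose by 0.43 ± 0.11 (SE, adjusted p = 0.00116), and Kremen1 fell by 0.23. In the matrix list Cntnap3, a neurexin-family adhesion gene, fell by 0.89 and Id4 by 0.61, while Zbtb7c rose by 0.67. Of 16 interneuron genes 4 fell and 1 rose, with a median of -0.10. Th changed by -0.36 ± 0.09, Nos1 by -0.13 ± 0.03 and Chat, the acetylcholine-synthesizing enzyme of cholinergic interneurons, by -0.13 ± 0.04, while Cck rose by 0.34 ± 0.10. Sst (-0.094), Npy (-0.10) and Pvalb (0.19), which mark other interneurons, did not pass. With FPKM 1 interneuron gene fell. Without Ccdc82+/- female 2 8 fell, and 7 without Ccdc82+/- male 2.

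**Figure D2:**
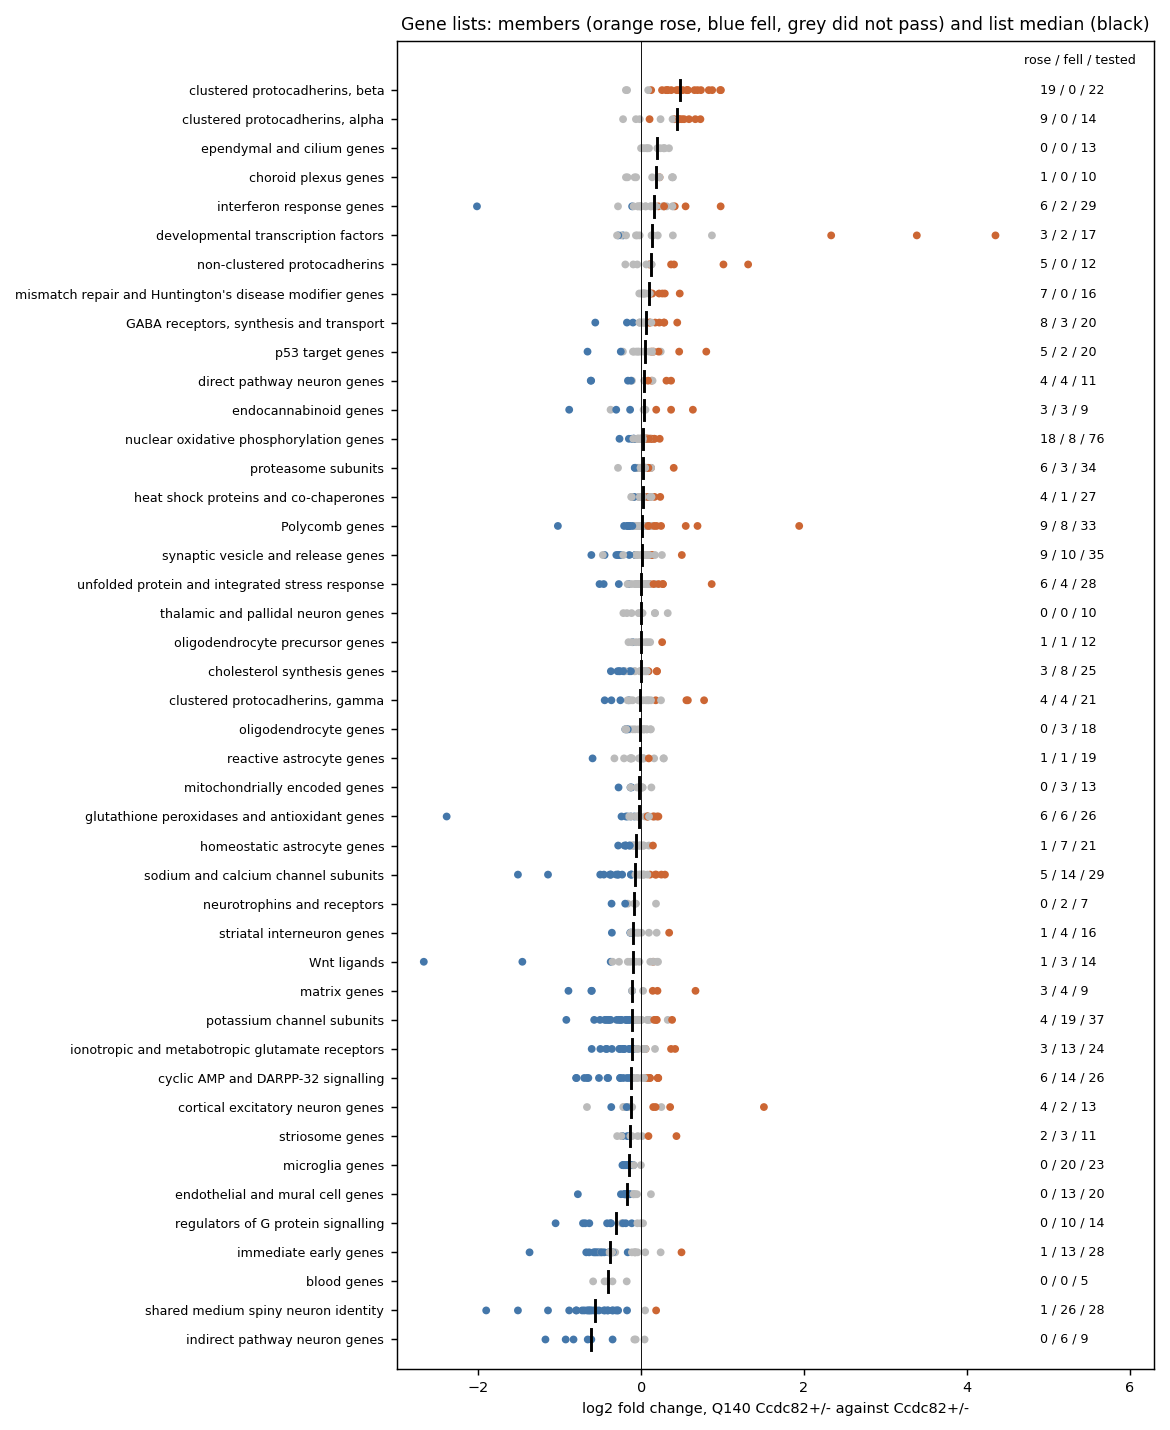
Log2 fold change of Q140 Ccdc82+/- against Ccdc82+/- (x axis) for the tested members of 44 gene lists (rows, sorted by median); orange points rose and blue points fell at an adjusted p of 0.05 (edgeR), grey points did not pass, black bars are medians, and the numbers at right count rises, falls and genes tested. The MSN identity list has a median of -0.56 and the beta protocadherins one of 0.48.

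In cyclic AMP signalling, through which dopamine receptors act, 14 of 26 genes fell and 6 rose (12 and 9 with FPKM). The falls included the enzymes that make and break down the messenger, Adcy5, Pde10a and Pde1b (above), with Pde7b (-0.41), Pde2a (-0.26) and Adcy9 (-0.26), and the G protein subunit genes Gnb5 (-0.41) and Gng7 (-0.22). Protein kinase A subunits rose or did not pass: Prkar2a by 0.21, Prkar1b by 0.20, Prkacb by 0.11 and Prkar1a by 0.078 were higher, while Prkaca (0.004) and Prkar2b (-0.055) did not pass. Gnas, the stimulatory G protein subunit gene, changed by 0.11, a call lost without Ccdc82+/- female 1 or male 2. Regulators of G protein signalling shorten receptor signals. Of 14 tested 10 fell and 0 rose, with a median of -0.31. Rgs14 lay at 93.4 to 116 CPM (median 99.1) in Ccdc82+/- and 43.9 to 57.3 (median 49.3) in Q140 Ccdc82+/- and changed by -1.05 ± 0.06 (SE, adjusted p = 7.66e-19). Rgs4 lay at 689 to 939 CPM (median 885) in Ccdc82+/- and 444 to 582 (median 532) in Q140 Ccdc82+/-. Both genes' groups were separate, and Rgs4 changed by -0.69 ± 0.06, Rgs11 by -0.71 ± 0.07.

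Immediate early genes, transcribed within minutes of neuronal firing, were lower: 13 of 28 fell and 1 rose, with a median of -0.38 (-0.44 on wild type and -0.49 on Ccdc82-/-). Egr2 lay at 18.6 to 56.8 CPM (median 36.5) in Ccdc82+/- and 1.97 to 21.6 (median 15.5) in Q140 Ccdc82+/-, ranges that overlapped, and changed by -1.37 ± 0.27 (SE, adjusted p = 6.88e-05). Homer1, a scaffold of glutamate receptors, changed by -0.67 ± 0.12, Egr3 by -0.55 ± 0.10 and Ier5 by -0.45 ± 0.04. Fos (-0.075) and Fosb (-0.071) did not pass, nor did Arc (-0.49) and Nr4a1 (-0.47). The groups of 2 members did not overlap, beside 5.76% of all genes tested that were lower without overlap. Q140 Ccdc82+/- female 1 had the lowest mean of the list. Fewer fell with the first number of the library name in the model (8) and in males alone, where 4 fell and 3 rose and the median was -0.11, against 12 and 0 with a median of -0.63 in females alone, and the rise of Nr4a2 was lost on leaving out any 1 of 9 libraries. The neurotrophin receptor gene Ntrk3 changed by -0.36 ± 0.05 and Sort1, a sorting receptor, by -0.20 ± 0.02. Bdnf (-0.17 ± 0.22), which reaches the striatum mainly from cortex, and Ntrk2 (-0.066 ± 0.07) did not pass.

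Glutamate receptor genes fell more often than they rose, with 13 of 24 lower, 3 higher and a median of -0.12. With FPKM 11 were lower and 7 higher, and the median was -0.045. Grik2, a kainate receptor subunit, lay at 166 to 191 CPM (median 182) in Ccdc82+/- and 119.8 to 142 (median 125) in Q140 Ccdc82+/- and changed by -0.50 ± 0.03 (SE, adjusted p = 3.84e-17). Of the metabotropic receptors, Grm4 changed by -0.43 ± 0.03 and Grm5, which signals through calcium release, by -0.36 ± 0.03, while Grm8 rose by 0.42. The NMDA receptor genes Grin1 and Grin2b fell by 0.23 and 0.14 (the call of Grin2b was lost in 8 of 16 fits without 1 library), and Grin2a (-0.035) did not pass. GABA receptor, synthesis and transport genes showed 8 rises and 3 falls among 20, with a median of 0.054. With FPKM they showed 13 and 2, with a median of 0.13. Gabrb2, a receptor subunit gene, rose by 0.28 ± 0.05. Gabrd, the subunit of extrasynaptic receptors, lay at 143 to 165 CPM (median 151) in Ccdc82+/- and 97.7 to 109 (median 104) in Q140 Ccdc82+/- and changed by -0.56 ± 0.04. The synthesis genes Gad1 (0.026) and Gad2 (0.057) did not pass.

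Potassium channel genes also fell more often than they rose (19 lower and 4 higher of 37, median -0.11, and 13 and 7 with FPKM, median -0.038). Kcnh4 lay at 95.5 to 122 CPM (median 106) in Ccdc82+/- and 51.8 to 67.2 (median 55.9) in Q140 Ccdc82+/- and changed by -0.92 ± 0.06 (SE, adjusted p = 1.03e-16). Kcnh3, of the same channel family, changed by -0.51 ± 0.03, the inward rectifier Kcnj4 by -0.45 ± 0.03 and the auxiliary subunit Kcnab1 by -0.58 ± 0.03. Among the rises, Kcnj3 changed by 0.38 ± 0.05. Of 29 sodium and calcium channel genes 14 fell and 5 rose; with FPKM 11 fell and 10 rose, and the sign of the median changed from -0.071 to 0.004. Beside Ryr1 and Scn4b, the calcium release channel gene Itpr1 changed by -0.46 ± 0.03, the calcium pump gene Atp2b1 by -0.50 ± 0.04 and Cacna2d3 by -0.37 ± 0.03, while Cacna2d1 rose by 0.29. The pore genes Scn1a (0.028), Scn2a (-0.052) and Scn8a (0.006) did not pass.

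Synaptic vesicle genes were split, with 9 higher and 10 lower of 35 and a median of 0.008 (16 and 6 of the 34 tested with FPKM). Syp, the vesicle protein synaptophysin, lay at 455 to 493 CPM (median 470.4) in Ccdc82+/- and 609.9 to 701 (median 673) in Q140 Ccdc82+/-. The groups were separate, and the change was 0.50 ± 0.03 (SE, adjusted p = 1.9e-19). The release genes Cplx2, Rims3 and Syt6 changed by -0.28 ± 0.03, -0.25 ± 0.03 and -0.28 ± 0.05. In the endocannabinoid system the receptor gene Cnr1 fell while the genes of its adaptor Cnrip1 and of the degrading enzyme Faah rose, by 0.37 ± 0.04 and 0.63 ± 0.05. Dagla, which makes an endocannabinoid ligand, changed by -0.31 ± 0.05. Of 9 such genes 3 rose and 3 fell (5 and 2 of the 8 tested with FPKM). Of 14 Wnt ligand genes 3 fell. Wnt8b lay at 2.26 to 5.08 CPM (median 3.68) in Ccdc82+/- and 0.3105 to 0.921 (median 0.547) in Q140 Ccdc82+/-, without overlap, and changed by -2.67 ± 0.23 (SE, adjusted p = 5.73e-13). Wnt4 lay at 2.32 to 4.09 CPM (median 2.802) in Ccdc82+/- and 0.859 to 1.48 (median 1.13) in Q140 Ccdc82+/- and changed by -1.46 ± 0.17, and Wnt7a changed by -0.37 ± 0.10. Wnt2 rose by 0.15 ± 0.06 (adjusted p = 0.0485), a call lost in several alternative fits and on leaving out any 1 of 11 libraries.

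Protocadherins are adhesion molecules by which neurons recognise one another. Their alpha, beta and gamma clusters lie side by side on chromosome 18, and each neuron uses a small choice of them. Beta cluster genes rose broadly: 19 of 22 rose, 0 fell and the median was 0.48 (0.46 on wild type and 0.52 on Ccdc82-/-), with groups that did not overlap in 13. Pcdhb3 lay at 3.09 to 3.87 CPM (median 3.62) in Ccdc82+/- and 6.12 to 7.94 (median 6.77) in Q140 Ccdc82+/- and rose by 0.97 ± 0.07 (SE, adjusted p = 2.9e-15). Pcdhb22 lay at 11.02 to 13.8 CPM (median 11.8) in Ccdc82+/- and 17.9 to 21.6 (median 19.9) in Q140 Ccdc82+/- and rose by 0.73 ± 0.05. The groups of both genes did not overlap. Pcdhb2 rose by 0.98, and Pcdhb1 (-0.19), Pcdhb8 (-0.17) and Pcdhb11 (0.086) did not pass. In the alpha cluster 9 of 14 rose and 0 fell, with a median of 0.44. Pcdha9 rose by 0.73 ± 0.11 and Pcdha7 by 0.66 ± 0.14. In females alone 3 alpha genes passed. The gamma cluster moved both ways (4 higher and 4 lower of 21, or 7 and 3 with FPKM). Pcdhga2 rose by 0.77 ± 0.08 and Pcdhga4 by 0.55 ± 0.06, while Pcdhgb4 changed by -0.45 ± 0.08. Alpha and gamma variants share constant exons, and how the authors' counting treated reads of these exons is not stated. Of 12 non-clustered protocadherins 5 rose and 0 fell. Pcdh19 lay at 10.3 to 14.6 CPM (median 12.1) in Ccdc82+/- and 21.7 to 27.4 (median 24.1) in Q140 Ccdc82+/- and rose by 1.01 ± 0.08, Pcdh10 by 0.40 ± 0.04 and Pcdh11x by 0.37 ± 0.05.

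Polycomb proteins keep developmental genes silent. Of 33 Polycomb genes 9 rose and 8 fell, with a median of 0.011. Cbx8 lay at 10.1 to 12.3 CPM (median 11.2) in Ccdc82+/- and 13.9 to 22.1 (median 18.3) in Q140 Ccdc82+/-. The groups did not overlap for this chromobox gene, which rose by 0.69 ± 0.07. Epop, a cofactor of Polycomb repressive complex PRC2, lay at 20.4 to 26.9 CPM (median 24.1) in Ccdc82+/- and 9.77 to 13.9 (median 11.4) in Q140 Ccdc82+/- and changed by -1.02 ± 0.08 (SE, adjusted p = 1.01e-13). The PRC2 core genes Ezh2 (0.011), Ezh1 (-0.007) and Eed (0.083) did not pass, and Suz12 rose by 0.10. With FPKM 15 rose and 6 fell.

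Of 56 developmental transcription factors, 17 had enough counts to be tested and 39 did not; because of that filter the tested ones are not a sample of the list. Of the 17, 3 rose and 2 fell, and 8 had a change below 0. With only the 16 libraries in the fit 14 were tested, of which 1 rose and 1 fell. The median was 0.128 in the main fit and -0.037 there. With FPKM 15 were tested, of which 4 rose and 0 fell. The falls were those of Gata2 (-0.22) and Foxc1 (-0.28), whose calls were lost on leaving out any 1 of 11 and 6 libraries, and the rises those of Wt1, Onecut1 and Hoxa7. Wt1, a factor of kidney and gonad development, lay at 0 to 0.129 CPM (median 0.0778) in Ccdc82+/- and 0.4603 to 1.99 (median 1.45) in Q140 Ccdc82+/-. Every Q140 library held more than any Ccdc82+/- library, the lowest of which held no read, and the fitted change was 4.35 ± 0.35 (SE, adjusted p = 3.7e-14). Onecut1 lay at 0 to 0.108 CPM in Ccdc82+/- and 0.153 to 0.797 in Q140 Ccdc82+/-, again without overlap, with a fitted change of 3.38 ± 0.44 (SE, adjusted p = 1.55e-08). Hoxa7 changed by 2.33 ± 0.39 with groups that overlapped. All levels of these 3 rising genes lay below 2 CPM, and fitted changes of genes at such counts depend on the offset of the model. Wt1 and Onecut1 lay near 0 in Ccdc82+/-, so they entered the test through other libraries, and their rises are not independent of the filter. The fitted changes of Wt1 on the other backgrounds were 3.72 ± 0.34 on wild type and 4.22 ± 0.37 on Ccdc82-/-. Those libraries took part in the same filter, so these values are not independent of it either.

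Mismatch repair genes act on the length of CAG repeats and, with other genes of DNA handling, modify the onset of Huntington's disease. Of 16 such genes, Ccdc82 among them, 7 rose and 0 fell (10 and 0 of the 15 tested with FPKM), with a median of 0.10. Rrm2b, a ribonucleotide reductase subunit gene, rose by 0.26 ± 0.04, Mlh3 by 0.11 ± 0.03, Msh6 by 0.14 and Pms1 by 0.22. The call of Exo1 (0.47) was lost on leaving out any 1 of 8 libraries (adjusted p up to 0.105 in edgeR). Msh3 (0.092), Pms2 (0.002), Fan1 (0.11) and Lig1 (0.056) did not pass. The calls fell to 2 in females alone and 4 in males alone. The list's mean was lowest in Ccdc82+/- female 4, and without that library 6 genes rose.

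Targets of p53 were mixed (5 higher and 2 lower of 20, or 9 and 2 with FPKM). Cdkn1a, the cell cycle inhibitor gene, lay at 11.3 to 20.3 CPM (median 13.5) in Ccdc82+/- and 7.38 to 10.9 (median 8.99) in Q140 Ccdc82+/- and changed by -0.66 ± 0.13 (SE, adjusted p = 5.86e-05). Eda2r, a death-domain receptor gene, lay at 0.409 to 0.848 CPM (median 0.511) in Ccdc82+/- and 0.754 to 1.14 (median 0.924) in Q140 Ccdc82+/- and rose by 0.80 ± 0.17, with overlapping groups. Plk2 changed by -0.25 ± 0.04 and Ccng1 by 0.12 ± 0.03. Of 28 genes of the unfolded protein and integrated stress responses 6 rose and 4 fell, with a median of 0.001. With FPKM 10 rose and 2 fell, and the median was 0.072. Atf6, a sensor of the endoplasmic reticulum, changed by -0.46 ± 0.03, Ern1, another sensor, by 0.27 ± 0.05 and Shmt2 by 0.27 ± 0.04; the chaperone gene Hspa5 (0.091), Atf4 (-0.028) and Xbp1 (-0.082) did not pass. Among 27 heat shock genes 4 rose and 1 fell, beside 18.4% higher and 16.7% lower over all genes tested. Hspa8, the constitutive chaperone, rose by 0.23 ± 0.08 and Hspa2 by 0.16 ± 0.05. The call of Hspa8 was lost without Ccdc82+/- female 1 (adjusted p = 0.0568 in edgeR). The count of rises was 11 with FPKM and 7 when the fit held only the 16 libraries.

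Metabolic and proteasome genes changed little. Nuclear genes of oxidative phosphorylation showed 18 rises and 8 falls among 76, with a median of 0.024 and members between -0.27 and 0.23. The ATP synthase gene Atp5g1 rose by 0.23 ± 0.04 and Cyc1 of complex III by 0.16 ± 0.02, and Ndufs3 of complex I changed by -0.27 ± 0.03. Proteasome subunits showed 6 rises and 3 falls of 34, led by Psmb10, an immunoproteasome subunit, at 0.40 ± 0.07. Over all genes tested 18.4% were higher and 16.7% lower. Only 3 proteasome genes rose on leaving out Ccdc82+/- female 1, male 1 or male 2, or Q140 Ccdc82+/- male 4. Both counts depended on scaling: with FPKM 46 and 2 oxidative phosphorylation genes and 25 and 0 proteasome genes were higher and lower. Of 13 mitochondrially encoded genes 3 fell and 0 fell with FPKM.

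Cholesterol synthesis supplies neuronal membranes, mostly from astrocytes. Of 25 genes 8 fell and 3 rose, with a median of -0.008 that became 0.060 with FPKM (5 lower and 6 higher). Cyp46a1, which hydroxylates cholesterol for export from the brain, lay at 265 to 319 CPM (median 302) in Ccdc82+/- and 228 to 253 (median 245) in Q140 Ccdc82+/- and changed by -0.29 ± 0.03 (SE, adjusted p = 7.22e-10). Acat2 changed by -0.37 ± 0.05, Msmo1 by -0.27 ± 0.05 and Srebf2, the transcription factor of the pathway, by -0.26 ± 0.03. Among 26 antioxidant genes 6 rose and 6 fell (9 and 3 with FPKM). Apart from Gpx6 the changes were small: Prdx5 changed by -0.19 ± 0.03, Prdx2 by 0.20 ± 0.03 and Sod2 by 0.16 ± 0.02, and Gpx4 by -0.084, a call lost without Ccdc82+/- female 4 or male 1. The median went from -0.027 to 0.043 with FPKM, beside 0.011 and 0.076 over all genes.

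**Figure D3:**
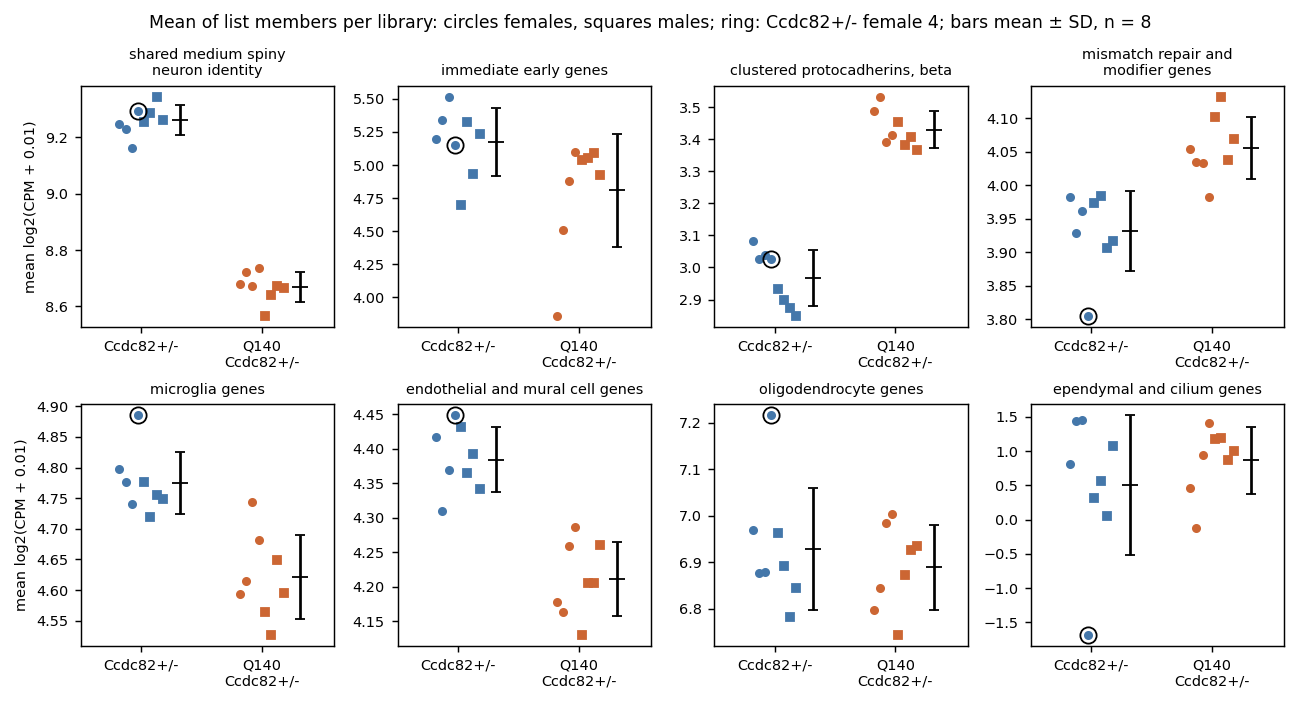
Mean log2(CPM + 0.01) over the members of 8 gene lists (y axes) in each library of the 2 groups; circles are females, squares are males, and a ring marks Ccdc82+/- female 4. The MSN identity, beta protocadherin and endothelial means do not overlap between the groups, while the ringed library is the highest of its group for microglia and oligodendrocyte genes.

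Microglia genes were lower by small, similar amounts. Of 23 tested 20 fell and 0 rose, with a median of -0.15 (-0.075 on wild type and -0.18 on Ccdc82-/-). Csf1r, the growth factor receptor on which microglia depend, lay at 96.01 to 105 CPM (median 99.5) in Ccdc82+/- and 85.5 to 95.97 (median 91.4) in Q140 Ccdc82+/- and changed by -0.14 ± 0.03 (SE, adjusted p = 0.000117). Cd68, a lysosomal gene, lay at 12.01 to 15.6 CPM (median 13.8) in Ccdc82+/- and 10.49 to 12.8 (median 12.1) in Q140 Ccdc82+/-, with overlap, and changed by -0.23 ± 0.05. The groups of 2 of the 23 members did not overlap, beside 5.76% of all genes tested that were lower without overlap. The count depended on the fit: 12 fell with the plate column in the model, 13 with the first number of the library name, 6 with FPKM, 5 in females alone and 11 in males alone. Ccdc82+/- female 4 had the highest mean of this list, and 18 genes fell without it, or 17 without both libraries numbered female 4. Endothelial and mural genes showed a like pattern, with 13 of 20 lower, none higher and a median of -0.18. Tagln, a smooth muscle gene, lay at 7.39 to 11.1 CPM (median 9.404) in Ccdc82+/- and 4.53 to 6.48 (median 5.49) in Q140 Ccdc82+/- and changed by -0.78 ± 0.10 (SE, adjusted p = 8.72e-09). Kdr (-0.25) lost its call without any 1 of 5 libraries, and the pericyte gene Rgs5 changed by -0.19 ± 0.04. Here 7 fell with the plate column, 4 with FPKM and 10 without Ccdc82+/- female 4.

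Homeostatic astrocyte genes gave 7 falls and 1 rise among 21, with a median of -0.061 that turned to 0.010 with FPKM (5 falls and 2 rises). The bicarbonate transporter gene Slc4a4 changed by -0.28 ± 0.04, Atp1b2 by -0.21 ± 0.04 and the glutamate transporter gene Slc1a2 by -0.19 ± 0.03. Of 19 reactive astrocyte genes 1 rose and 1 fell (3 and 1 of the 18 tested with FPKM). S100a10 changed by -0.60, and Gfap stood at 0.028 ± 0.20 without passing. Among 18 oligodendrocyte genes 3 fell, a share near the 16.7% lower of all genes tested. Among the falls were Mobp by 0.20 and Mal by 0.16, and Mal lost its call without any 1 of 7 libraries. Only 1 fell without Ccdc82+/- female 4, whose mean for the list was highest, and 5 fell without Ccdc82+/- male 3. With FPKM 4 oligodendrocyte genes rose and 0 fell, and the median went from -0.018 to 0.054. Over all genes the median was 0.011 with TMM and 0.076 with FPKM. The oligodendrocyte and homeostatic astrocyte medians lay below it in both fits. Without Ccdc82+/- female 4 the oligodendrocyte median was 0.028, above the 0.0081 of all genes. With the plate column in the model it was 0.023, beside 0.0082 over all genes. Of 12 precursor genes Lhfpl3 rose by 0.26 ± 0.06 and Cspg4 changed by -0.11 ± 0.03, and with FPKM 3 rose and 0 fell. Interferon response genes, of which 6 of 29 rose and 2 fell, held a low-level member with a large fall: Ifi27l2a lay at 0.402 to 1.08 CPM (median 0.735) in Ccdc82+/- and 0.0406 to 0.399 (median 0.156) in Q140 Ccdc82+/-, without overlap, and changed by -2.02 ± 0.23 (SE, adjusted p = 8.08e-10). Over all genes tested 18.4% were higher and 16.7% lower. The median of the interferon list was 0.15 here and -0.066 on wild type, where 2 rose and 2 fell. Of the list, 3 rose without Q140 Ccdc82+/- female 3 or male 3.

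A dissection of striatum can carry along other tissue, and lists of genes of such tissue were read for this. The cortical list held 4 higher and 2 lower genes of 13, and its summed level, 2780.2 to 3248 CPM in Ccdc82+/- and 2415 to 2739 in Q140 Ccdc82+/-, did not overlap between the groups. It includes Camk2a and Nrgn, which MSN also express and which changed by -0.18 ± 0.02 and -0.37 ± 0.06. The genes that rose included Cux2 (0.36 ± 0.06), whose groups overlapped, Lamp5 (0.18 ± 0.03), whose groups did not, and Tshz2 (0.15 ± 0.06), a call lost on leaving out any 1 of 9 libraries. Over the 13 genes the log2 changes ran from -0.67 to 1.51, so these 3 do not include the largest. The cortex-specific genes Neurod6 (-0.67), Tbr1 (-0.13) and Slc17a7 (-0.22) did not pass. The summed level of the thalamic and pallidal list was 66.02 to 94.4 CPM in Ccdc82+/- and 66.4 to 89.6 in Q140 Ccdc82+/-. That of choroid plexus was 27.1 to 48.9 CPM in Ccdc82+/- and 27.99 to 57.6 in Q140 Ccdc82+/-, and that of ependyma 13.4 to 54.2 CPM in Ccdc82+/- and 22.9 to 55.04 in Q140 Ccdc82+/-. These 3 sums overlapped between the groups. Of 10 choroid plexus genes 1 rose, and none of 10 thalamic, 13 ependymal and 5 blood genes passed. The part of other cell types in the changes above was not tested.

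By chromosome, X-linked genes rose in a larger share than autosomal genes. Of 695 tested X-linked genes 220 (31.7%) rose and 68 (9.78%) fell. On the autosomes the shares were 17.9% and 16.97% of 18389 genes. Median changes were 0.055 on the X and 0.010 on the autosomes, a small shift. Among protein-coding genes whose mean log2 CPM reached 1 the X shares were 42.8% higher and 10.47% lower of 430, against 22.5% and 21.4% of 12089 autosomal genes. The pattern was similar in the other contrasts of Q140, which share no library with this one: X-linked shares were 28.5% higher and 10.6% lower on wild type and 28.1% and 9.21% on Ccdc82-/-. The median on the X was 0.043 in females and 0.074 in males. These values are descriptions, and the difference between chromosomes was not tested. Within 5 Mb of Htt 20.8% of 144 genes rose and 21.5% fell, and within 5 Mb of Ccdc82 13.6% and 20.5% of 44.

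**Figure D4:**
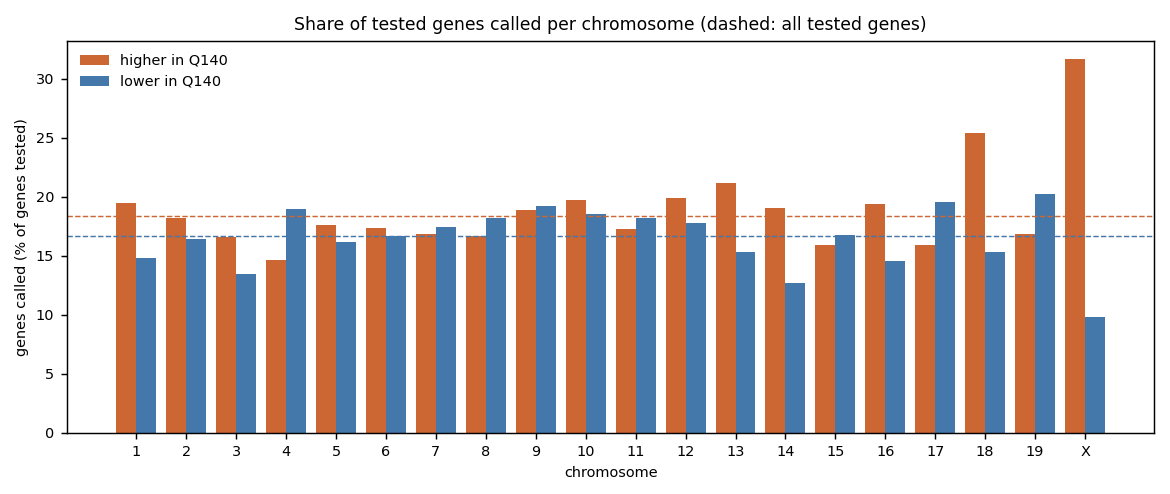
Share of tested genes (y axis, %) that were higher (orange) or lower (blue) with Q140 on the Ccdc82+/- background, by chromosome (x axis); dashed lines are the shares over all genes tested, 18.4% and 16.7%. The X chromosome has 31.7% higher and 9.78% lower.

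The Q140 effect on the Ccdc82+/- background was set against that on the wild type background (Q140 against wild type) and on the Ccdc82-/- background, contrasts that share no library. A test of the difference between effects found no gene that differed at an adjusted p of 0.05: 0 (0.0%) of 19193 against wild type, with 1011 (5.27%) at an unadjusted p under 0.05, and 0 against Ccdc82-/-, with 470 (2.45%). By DESeq2 1 gene, Gm10123, passed against wild type (-0.15 in edgeR), and with the plate column in the model 1 unnamed gene (ENSMUSG00000105664) did. A p that misses the threshold does not show that the effects are equal. Of the 6726 genes that passed here, 98.3% changed in the same direction on wild type and 99.0% on Ccdc82-/-. On wild type, 18.2% of all genes tested were higher and 16.5% lower with Q140, and on Ccdc82-/- 17.5% and 15.7%. The genes that passed here passed there in the same direction in 74.9% and 76.4%. Only 2 passed in opposite directions on wild type, and 0 on Ccdc82-/-.

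In size, the 1016 genes that passed here with a change of at least 0.5 had a median ratio of the wild type effect to this effect of 0.874. Choosing genes on one background favours large values there: when 958 genes were chosen on wild type instead, the median ratio of this effect to theirs was 0.944. Both ratios were below 1: each background gave the larger effect for genes chosen on it. Against Ccdc82-/- the corresponding ratios were 0.911 and 0.946. Named genes give the sizes on the 3 backgrounds. Penk changed by -1.18 ± 0.04 here and by -1.03 ± 0.04 on wild type and -1.07 ± 0.04 on Ccdc82-/-. Drd1 changed by -0.61 ± 0.03 here and by -0.57 ± 0.03 on wild type and -0.59 ± 0.03 on Ccdc82-/-. Dsg2, of the 12 largest rises, changed by 1.295 ± 0.22 here and by 0.63 ± 0.22 on wild type and 0.89 ± 0.22 on Ccdc82-/-; its difference from wild type had an adjusted p of 0.915 in edgeR.

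**Figure D5:**
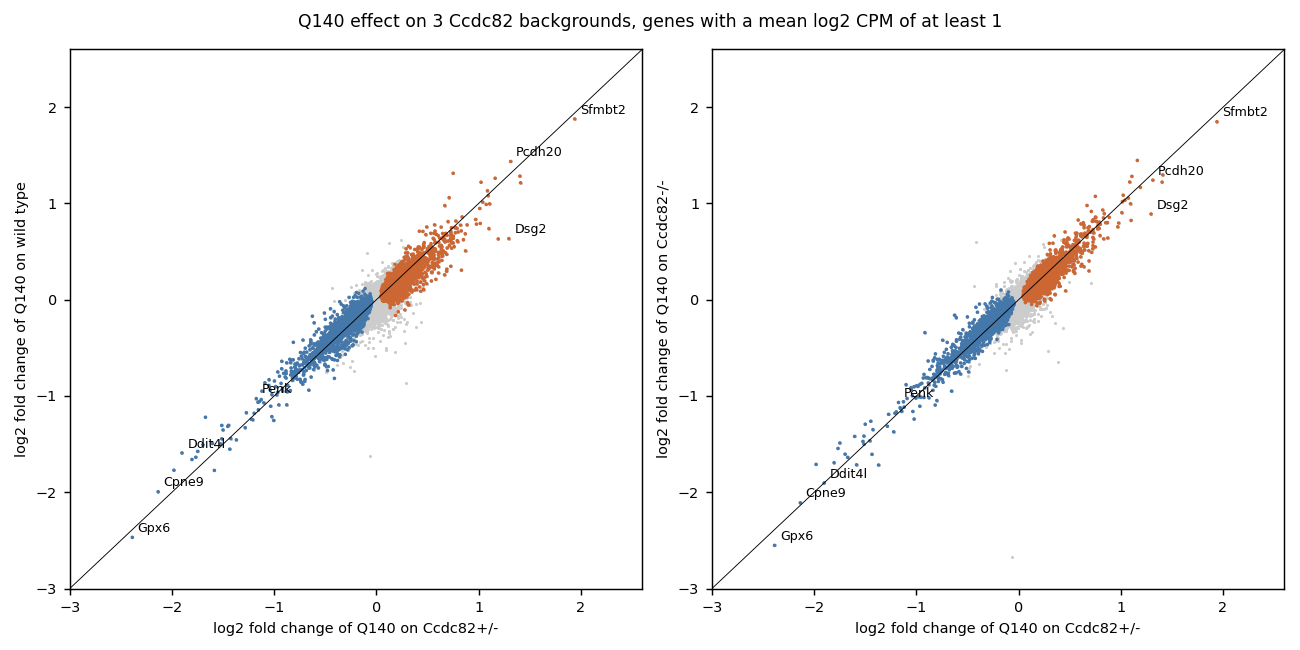
Log2 fold change with Q140 on the Ccdc82+/- background (x axes) against that on the wild type (left) and Ccdc82-/- (right) background (y axes) for genes whose mean log2 CPM reached 1; orange and blue genes passed on the Ccdc82+/- background, grey ones did not, and the line marks equal effects. The coloured genes spread along the line, with Penk at -1.18 here, -1.03 on wild type and -1.07 on Ccdc82-/-.

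Between the sexes, the male minus female difference of the effect passed for 0 (0.0%) of 19714 genes in edgeR, with 759 (3.85%) at an unadjusted p under 0.05. Of the 6726 genes that passed, 6718 changed in the same direction in females and in males. Females alone passed for 3697 genes and males for 4725 in the model with a coefficient per genotype and sex. Among named MSN genes, Ppp1r1b changed by -0.60 ± 0.05 in females and -0.73 ± 0.05 in males, and Arpp19, a phosphatase inhibitor gene, by -0.63 ± 0.04 and -0.82 ± 0.04, a difference with an adjusted p of 0.99998 in edgeR.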

How the data were processed

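Striatal RNA from 47 mice was sequenced, and the 8 Ccdc82+/- and 8 Q140 Ccdc82+/- libraries were compared. The authors deposited read counts per gene and FPKM. Per the submitters' processing notes, STAR 2.7.5c, SAMtools 1.10 and HTSeq 0.12.3 were used with the builds GRCm38 and mm10; the settings, the strand option of the counting and the annotation are not given in the sources used here.

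The deposited counts were filtered with filterByExpr over the 6 genotype groups, scaled by TMM and fitted with edgeR 4.0.16 (R 4.3.3) by robust quasi-likelihood, modelling each of the 6 groups and sex over all 47 libraries. P-values were adjusted by Benjamini-Hochberg over all 19193 genes, with a threshold of 0.05. The spread over libraries gave 95% intervals that reached a median of 0.083 log2 units to either side of the estimate at a mean log2 CPM of at least 1. Differences between the Q140 effects on separate backgrounds, and between the sexes, were contrasts of such models. For Ccdc82 and Htt, an exact permutation test (two-sided) of the mean CPM was run over the 16 libraries.

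Alternatives were RLE scaling, DESeq2 1.42.0, limma 3.58.1 with voom weights, no filter, no sex term, the plate column or the first number of the library name as a term, a replicate block, only the 16 libraries, each sex alone and each library left out. The deposited FPKM were tested with limma on log2(FPKM + 0.1), for 21101 genes at 0.1 FPKM or more in 8 libraries. The code was tested on simulated data.

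The comparison and its 44 gene lists (935 symbols, 1 of them unmatched) were chosen with earlier results of these data known. Named genes were the 12 largest rises and 12 largest falls at a mean log2 CPM of at least 1. To these were added up to 4 per list by smallest p and the 6 smallest p. Leading genes of the difference tests were to be named if they passed the threshold, and in edgeR 0 did. Further list members were named after their values were seen, and 11 genes are not reported here. Positions come from GENCODE M21, which held 48435 of the gene identifiers, and promoters from RefSeq, for 12659 of the genes tested. No 2 libraries held identical counts, and libraries of a group differed by more than counting noise (chi-square per gene of 3.53 to 21.1).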

Additional observations from a re-analysis of the deposited data

Results flagged for a closer look

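Among 152 sets of 8 values tested with Dixon's criterion at its 95% critical value, 12 held a library that stood apart. Chance gives about 1 in 20. Most involved the females numbered 4.

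In Q140 Ccdc82+/- female 4, Sfmbt2 was at 5.55 CPM, below the 8.70 to 10.97 CPM of the other Q140 Ccdc82+/- libraries. The same library had the highest Gpx6 level of its group, 4.52 CPM beside 1.504 to 2.64, and the lowest Stmn2 level, 88.9 CPM beside 100.4 to 108.2. These 3 values lay toward the Ccdc82+/- group without reaching it.

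In Ccdc82+/- female 4, the desmosomal gene Dsg1c was at 1.05 CPM beside 2.24 to 3.13 in the other 7. Mean log2 CPM values of several lists also stood apart there. Microglia genes were at 4.89 beside 4.72 to 4.80 and oligodendrocyte genes at 7.22 beside 6.78 to 6.97, both the highest of the group. Mismatch repair and modifier genes were at 3.805 beside 3.91 to 3.98, p53 targets at 3.11 beside 3.24 to 3.33 and ependymal genes at -1.68 beside 0.052 to 1.46, each the lowest.

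Nts reached 3.38 CPM in Ccdc82+/- female 2, beside 1.44 to 2.32. Immediate early genes had a mean log2 CPM of 3.86 in Q140 Ccdc82+/- female 1, beside 4.51 to 5.10. Blood genes were at -5.29 in Q140 Ccdc82+/- female 2, beside -0.68 to 1.05.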

How the results depend on the processing

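The count of genes higher and lower with Q140 was 3524 and 3202. It was 3330 and 3361 with RLE scaling, 3376 and 3411 with DESeq2, 3703 and 3348 with voom, 3149 and 2979 without a filter, 3426 and 3105 without a sex term, 2981 and 2828 with the plate column, 2903 and 2847 with the first number of the library name, 3350 and 3241 with only the 16 libraries, and 2377 and 2308 in males alone. Females alone gave 1524 and 1800. The fits of males alone and of females alone both held fewer libraries. The deposited FPKM gave 6500 and 1913; the median change of all genes was 0.076 there and 0.011 in the TMM fit. Leaving out 1 library gave 3281 to 3478 higher and 3036 to 3211 lower genes. Against wild type, 1 gene differed in effect with DESeq2 and 1 with the plate column, beside 0 in edgeR.

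Replicate numbers within sex recur in both groups. Of 8 same-numbered pairs, 2 had correlated deviations above 0.1 (range -0.21 to 0.158) and 3 libraries correlated best with their own number. So few pairs cannot decide whether the numbers pair mice. The same-numbered libraries of female 4, of male 1 and of male 2 share the first number of the library name, whose meaning the labels do not state. With the replicate block 3540 genes were higher and 3199 lower.

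Among 44 list medians, the sign changed for 10 with FPKM, 6 with the plate column, 7 with the first number of the library name, at most 2 in each other fit of all 16 libraries and at most 5 on leaving out 1 library (5 without Q140 Ccdc82+/- female 2). Among single genes and the Ccdc82 level it changed for 4, none of which passed in edgeR. Ntrk2 was at 0.0040 with FPKM, and mt-Cytb at 0.044 with FPKM and 0.0062 with the plate column. The log2 fold change of Ccdc82 was -0.014 with the plate column, -0.016 with the first number of the library name and ran from -0.0078 to 0.063 on leaving out 1 library, the lowest without Q140 Ccdc82+/- female 3. The difference of the Ccdc82 level ran from -0.00988 to 0.378 CPM on leaving out 1 library. That of the Htt level was -0.299 CPM without TMM (exact permutation p = 0.925). The cause of these differences was not tested.

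Of 190 genes followed singly, 176 kept their direction and side of the threshold with the plate column, 179 with the first number of the library name, 170 with FPKM and 181 to 188 on leaving out 1 library. Calls lost with the plate column numbered 11 and with FPKM 15. The plate columns were not balanced: column 6 held 3 Ccdc82+/- and no Q140 Ccdc82+/- library, and column 4 held 1 and 3. Genes below about 1 CPM had the widest intervals.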
